A study of Mus musculus with 6 samples.

Results

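SLAM receptors are surface proteins of the immunoglobulin superfamily, and together with the related adhesion receptor CD2 and the SAP and TSAd adaptor proteins their genes were followed here in CD8+ T cells from a tumor and from the spleen. The members were chosen by name, as the rows of the count table whose Ensembl identifiers map to Slamf1, Slamf6, Slamf7, Ly9, Cd84, Cd48, Cd2, Sh2d1a and Sh2d2a, which gave 9 of 55335 gene rows. Each symbol matched 1 row, and all 9 passed the filter on low counts.

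All P14 T cells share 1 transgenic antigen receptor, specific for the GP33-41 epitope, and B16-GP33-41 is a mouse melanoma line that carries this epitope. Both groups are labelled C57BL/6, 10-week-old and P14 TCR transgenic, and the hosts were C57BL/6 mice, whose own immune cells are not said to have been depleted. Donor cells were given on day 11 of melanoma growth and later recovered by FACS, yielding 3 P14 TIL libraries from Percoll-enriched tumor leukocytes and 3 P14 Sp libraries from spleens of the same mice. Neither the time of harvest, the sort gates nor the number of mice per library is stated, so the p-values reflect the spread among libraries, which may be technical.

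Most SLAM receptors bind the same receptor on a neighbouring cell. CD48, which has a lipid anchor and no tail, is instead the ligand of CD2 and of CD244 in the mouse. The tails of most other SLAM receptors carry tyrosine motifs to which SAP, encoded by Sh2d1a, binds and brings the kinase FYN. Where SAP is absent, the same motifs can recruit the phosphatases SHP-1, SHP-2 and SHIP-1. The family is known in CD8+ T cells for killing of B cells that carry viral antigen and, in the case of Slamf6 (Ly108), as a marker of the stem-like cells within exhausted populations. B cells also express several members, among them Cd48, Ly9 and Cd84, and myeloid cells express Cd48 and Cd84.

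Library totals ranged from 36198681 to 38263483 counts in P14 TIL and from 35095261 to 37650999 in P14 Sp. Marker lists were chosen with earlier results of these data known. The CD8+ T cell markers were Cd3d, Cd3e, Cd3g, Cd247, Cd8a, Cd8b1, Cd5, Cd6, Lat and Trac. They summed to between 4231 and 4368 CPM (counts per 1000000 library counts) in P14 TIL and between 4534 and 4603 CPM in P14 Sp. Of the 10, 3 were higher, 3 lower and 4 not called. Markers of B cells summed to between 10.7 and 12.8 CPM in P14 TIL, where Cr2 was at 0, and to between 548 and 565 CPM in P14 Sp, with 10 of 10 lower in P14 TIL. Macrophage and monocyte markers (10 of 10 lower) summed to 32.6 to 33.5 CPM in P14 TIL and 241 to 251 CPM in P14 Sp, and dendritic cell and MHC class II markers (10 of 10 lower, Clec9a and Siglech at 0 in P14 TIL) to 175 to 182 CPM and 1754 to 1789 CPM. NK cell markers summed to 28.2 to 31.7 CPM in P14 TIL and 55.5 to 57.6 CPM in P14 Sp, with 2 of 8 higher and 3 lower. CD4 T cell markers summed to 44.5 to 47.9 CPM in P14 TIL and 58.7 to 59.9 CPM in P14 Sp, with 1 of 4 higher and 2 lower. Platelet markers (6 of 6 lower, Gp9 and Treml1 at 0 in P14 TIL) summed to at most 0.548 CPM in P14 TIL and 13.6 to 15.8 CPM in P14 Sp. Erythroid markers (5 of 6 higher, 1 lower) summed to 247 to 274 CPM in P14 TIL and 207 to 210 CPM in P14 Sp. Melanoma markers (2 of 6 tested) summed to 9.38 to 10.4 CPM in P14 TIL and 18.9 to 21 CPM in P14 Sp. Most of that sum was Pmel, which was lower in P14 TIL (8.54 against 19.8 CPM). Dct, the other one tested, was higher in P14 TIL (0.460 against 0.00885 CPM). Among those not tested, Tyrp1 (0.575 against 0 CPM) and Mlana (0.171 against 0.0190 CPM) lay above P14 Sp in every P14 TIL library. Tyr and Sox10 overlapped between tissues. The codes in the sample descriptions end alike within a tissue and differ between tissues, so any batch they mark cannot be told apart from tissue. P14 TIL replicate 3 stood farthest from its group, with a chi-square of 18.3 and 30.7 per degree of freedom against the other P14 TIL libraries, which were at 8.47 from each other, while pairs of P14 Sp libraries were at 2.12 to 3.33. Values without it are therefore given below for each member and for some of the other genes.

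**Figure D1:**
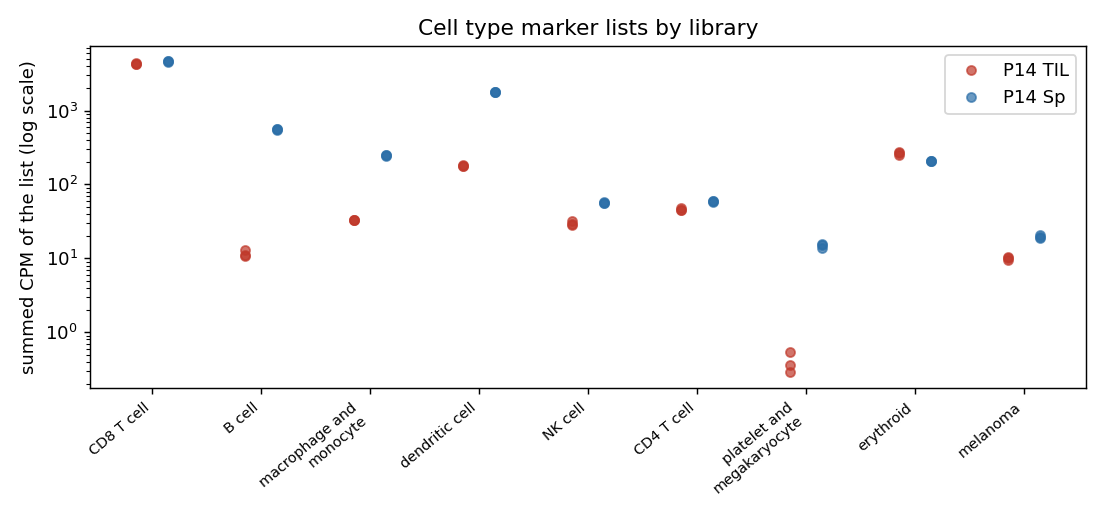
Summed CPM of each cell type marker list (log scale) in the 3 P14 TIL libraries (red) and the 3 P14 Sp libraries (blue). Each point is 1 library. The CD8 T cell list lies between 4231 and 4603 CPM in all 6 libraries, while the B cell list lies at 10.7 to 12.8 CPM in P14 TIL and 548 to 565 CPM in P14 Sp.

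Among the 9 members, Sh2d2a and Slamf1 rose in P14 TIL, to 3.28-fold and 2.21-fold of the spleen level, and the other 7 fell. The falls ran from 2.59-fold for Cd48 through 1.81-fold for Cd84, 1.75-fold for Ly9, 1.66-fold for Slamf6 and 1.5-fold for Sh2d1a to 1.16-fold for Cd2 and 1.12-fold for Slamf7. Of all 19783 genes tested, 70.7% were called in either direction (adjusted p below 0.05 in edgeR's quasi-likelihood test), with 34.8% higher and 35.9% lower. A call by itself is therefore common in this comparison. The libraries of the tissues did not overlap for any of the 9 members, and for 74.5% of all genes tested. The median log2 fold change was -0.58 over the 9 members and -0.02 over all genes tested. Against a null of a 1.5-fold change, Sh2d2a and Slamf1 were still called higher, where 14.9% of all genes were, and Cd48, Cd84 and Ly9 lower, where 17.5% were. In bulk libraries, fewer cells that express a gene and less RNA of it per cell cannot be told apart. Markers of B cells and myeloid cells were lower in P14 TIL, and the part of such cells in the falls was not tested.

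**Figure D2:**
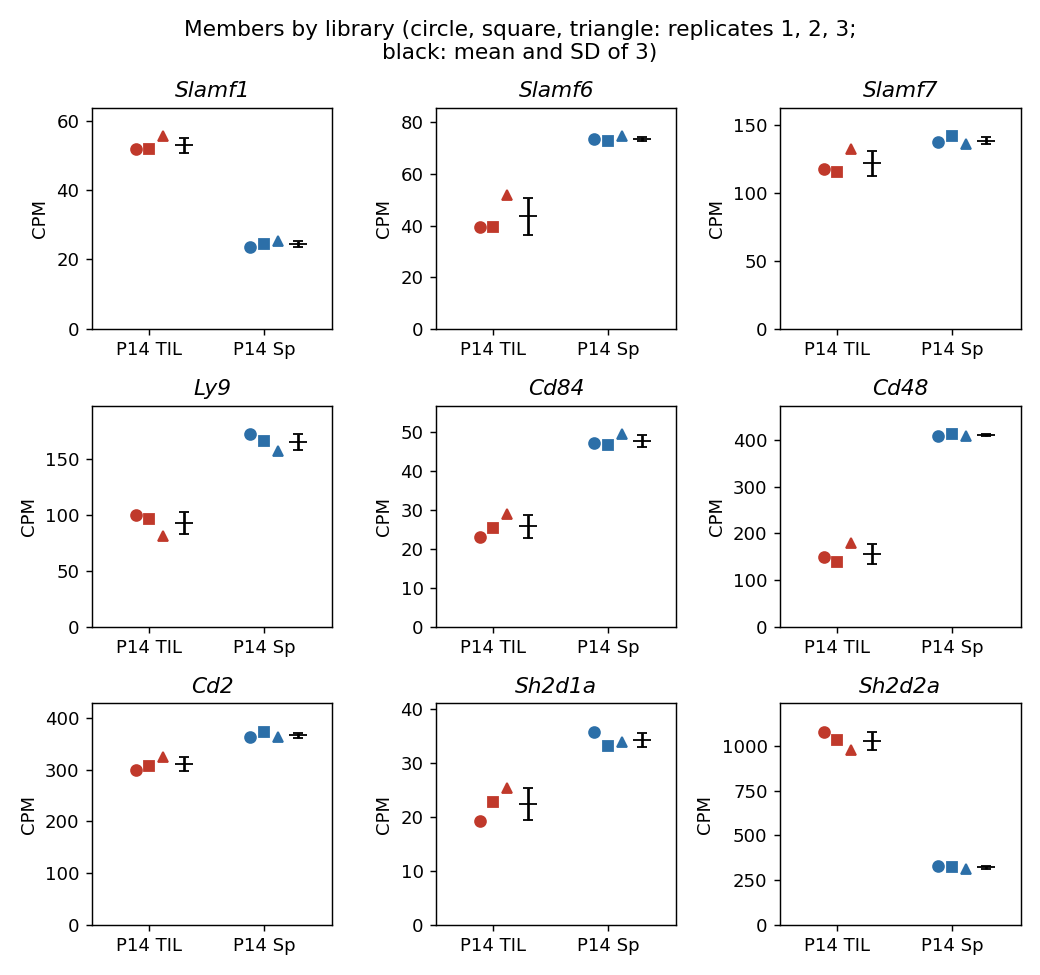
CPM of each member in each library, P14 TIL in red and P14 Sp in blue; circles, squares and triangles are replicates 1, 2 and 3, and black bars are the mean and SD of 3 libraries. Sh2d2a and Slamf1 lie higher in all 3 P14 TIL libraries, the other 7 lie lower, and the gap is narrowest for Slamf7, with 133 CPM in P14 TIL replicate 3 and 137 CPM in P14 Sp replicate 3.

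Slamf1 (SLAM, CD150), a self-binding receptor of activated T cells, was at 51.7, 51.7 and 55.5 CPM in P14 TIL replicates 1, 2 and 3, against 23.7, 24.4 and 25.3 CPM in P14 Sp. Every P14 TIL library lay above every P14 Sp library, with a spread of 4.10% (SD over mean) in P14 TIL and 3.31% in P14 Sp. The log2 fold change was 1.14 (SE 0.06, edgeR adjusted p = 3.3e-08), and without P14 TIL replicate 3 it was 1.13. It is the receptor among the 6 SLAM genes of the set that moved up, although its gene lies between those of Cd48 and Cd84, which moved down.

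The 300 bases around the annotated start of Slamf1 and of these flanking members are shown because Slamf1 moved opposite to both neighbouring genes of its family. RefSeq promoter windows on GRCm38.p6, from 250 bases before to 50 bases after the start, were found for 5 of the 9 members (Slamf1, Slamf6, Slamf7, Cd84 and Cd48). The windows lie on the plus strand, at chr1:171681742-171682041 for Cd48, chr1:171766882-171767181 for Slamf1 and chr1:171839447-171839746 for Cd84. Capitals mark matches on either strand to GGAAA, the core bound by NFAT, factors activated by calcium signals from the T cell receptor.
Cd48: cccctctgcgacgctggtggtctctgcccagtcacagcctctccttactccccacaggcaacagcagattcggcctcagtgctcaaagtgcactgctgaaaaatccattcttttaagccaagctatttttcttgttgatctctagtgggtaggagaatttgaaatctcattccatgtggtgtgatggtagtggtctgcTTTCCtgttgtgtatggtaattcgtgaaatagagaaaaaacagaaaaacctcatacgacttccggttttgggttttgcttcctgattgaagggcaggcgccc
Slamf1: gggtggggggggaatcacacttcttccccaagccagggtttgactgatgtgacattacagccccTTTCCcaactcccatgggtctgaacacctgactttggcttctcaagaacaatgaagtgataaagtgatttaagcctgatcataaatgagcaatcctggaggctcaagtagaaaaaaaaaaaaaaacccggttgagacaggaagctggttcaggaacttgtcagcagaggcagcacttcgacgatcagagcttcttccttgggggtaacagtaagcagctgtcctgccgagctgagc
Cd84: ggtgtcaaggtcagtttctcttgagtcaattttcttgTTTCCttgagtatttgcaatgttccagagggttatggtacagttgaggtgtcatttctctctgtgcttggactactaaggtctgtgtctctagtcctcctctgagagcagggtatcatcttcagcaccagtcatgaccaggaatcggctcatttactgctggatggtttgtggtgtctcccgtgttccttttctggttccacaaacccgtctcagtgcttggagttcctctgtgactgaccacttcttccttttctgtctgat
Each of the 3 windows held 1 match to GGAAA on the reverse strand, with its first base at -52 from the annotated start in Cd48, -186 in Slamf1 and -213 in Cd84. This core occurs in 61.3% of all 32851 RefSeq promoter windows of that length and had 3 matches in the Slamf7 window and 0 in the Slamf6 window, which are not printed. The AP-1 motif TGANTCA, present in 7.81% of all windows, occurred once in Cd84 and was not found in Slamf1 or Cd48. The TCF/LEF motif CTTTGA, present in 16.0%, occurred once in Cd48 and was not found in Slamf1 or Cd84. The E-box CANNTG, in 72.3% of all windows, had 2 matches in Slamf1 and 1 in each of Cd48 and Cd84. The motifs TGTTTA of FOXO factors (13.4%) and GGGNNTTCC of NF-kB (5.82%) had no match in the 3 windows. All searches covered both strands, and no match overlapped a match of another motif. A match describes letters in a window and is not a binding site.

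Cd48, the ligand of CD2 and CD244, had the largest fall of the set. It was at 148, 138 and 180 CPM in P14 TIL, against 410, 412 and 409 CPM in P14 Sp. The P14 TIL libraries spread by 14.2% (SD over mean), with replicate 3 the highest, while the P14 Sp libraries lay within 409 and 412 CPM. The log2 fold change was -1.37 (SE 0.08, edgeR adjusted p = 5.5e-08), and -1.47 without P14 TIL replicate 3. All 10 B cell markers and all 10 macrophage and monocyte markers also fell in P14 TIL, and their part in the fall of Cd48 was not tested.

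Ly9 (CD229), a self-binding receptor with several immunoglobulin domains, was at 100.04, 95.7 and 81.2 CPM in P14 TIL, against 172, 165 and 157 CPM in P14 Sp. Here P14 TIL replicate 3 was the lowest, not the highest, of its group. The log2 fold change of -0.81 (SE 0.08, edgeR adjusted p = 4.5e-06) became -0.70 without it. All 10 B cell markers also fell in P14 TIL, and their part in the fall of Ly9 was not tested.

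Cd84 (SLAMF5), a self-binding receptor that B cells, platelets and myeloid cells also carry, was at 23.1, 25.4 and 29.0 CPM in P14 TIL, against 47.2, 46.6 and 49.4 CPM in P14 Sp. Its log2 fold change was -0.86 (SE 0.08, edgeR adjusted p = 1.8e-06). Without P14 TIL replicate 3, the highest of its group, it was -0.93. All 6 platelet markers, all 10 B cell markers and all 10 macrophage and monocyte markers also fell, and their part in this was not tested.

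Slamf6, which encodes Ly108, was at 39.5, 39.5 and 51.9 CPM in P14 TIL, against 73.4, 72.9 and 74.6 CPM in P14 Sp. It had the widest spread of the members in P14 TIL, at 16.3%, because replicate 3 lay above the other pair. The log2 fold change was -0.73 (SE 0.09, edgeR adjusted p = 2.4e-05), or -0.85 without that library. Within each library, the count of Slamf1 exceeded that of Slamf6 in P14 TIL, by ratios of 1.31, 1.31 and 1.07, whereas in P14 Sp it was 0.322, 0.335 and 0.339 of it. All 10 B cell markers fell in P14 TIL as well. The part of other cells in the fall of Slamf6 and in this ratio was not tested.

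Slamf7 (CRACC), a receptor of NK cells and cytotoxic T cells, changed least. It was at 118, 115 and 133 CPM in P14 TIL, against 138, 142 and 137 CPM in P14 Sp, so the tissues were separated by a narrow gap. The log2 fold change of -0.16 (SE 0.06, edgeR adjusted p = 0.034) lost its call without P14 TIL replicate 1 or 2 or any 1 of the P14 Sp libraries (edgeR adjusted p from 0.079 to 0.15), and kept it without P14 TIL replicate 3 (-0.20, adjusted p = 0.0011). With the replicate number as a block the adjusted p was 0.053. Slamf7 shares 423 bp of exon with the antisense model Gm37787, which had 370 to 515 counts in P14 TIL and 405 to 460 in P14 Sp, and it is not stated whether counting used strand.

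Cd2, the adhesion receptor for CD48, was at 299, 308 and 325 CPM in P14 TIL, against 364, 372 and 363 CPM in P14 Sp. The tissues did not overlap. The log2 fold change was small at -0.21 (SE 0.05, edgeR adjusted p = 0.0030), or -0.23 without P14 TIL replicate 3. As its ligand gene fell by more, the ratio of Cd2 to Cd48 counts was 2.01, 2.23 and 1.80 in the P14 TIL libraries and 0.887, 0.903 and 0.888 in the P14 Sp libraries. The part of other cells in the fall of Cd2 and in this ratio was not tested.

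The adaptor genes moved apart. Sh2d2a encodes TSAd, an adaptor that binds LCK and is induced when T cells are activated. It was at 1077, 1035 and 976 CPM in P14 TIL, against 327, 322 and 313 CPM in P14 Sp (log2 fold change 1.71, SE 0.06, edgeR adjusted p = 7.6e-10). Sh2d1a, the SAP gene, was at 19.3, 22.7 and 25.2 CPM in P14 TIL, against 35.7, 33.1 and 33.9 CPM in P14 Sp (log2 fold change -0.58, SE 0.09, edgeR adjusted p = 0.00011). For each count of Sh2d1a there were 56.0, 45.6 and 38.7 counts of Sh2d2a in the P14 TIL libraries and 9.16, 9.72 and 9.25 in the P14 Sp libraries. Without P14 TIL replicate 3, the log2 fold changes were 1.77 for Sh2d2a and -0.66 for Sh2d1a. Sh2d1a shares 1465 bp of exon with Tenm1 on the opposite strand, but Tenm1 had 0 to 3 counts in any library. The other 7 members share no exon sequence with another gene model in GENCODE M21.

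The tumor libraries did not vary in step across the set. P14 TIL replicate 3 had the highest CPM of its group for 7 members (Slamf1, Slamf6, Slamf7, Cd84, Cd48, Cd2 and Sh2d1a) and the lowest for the other 2, Ly9 and Sh2d2a. Without it, all 9 members kept their direction and their call. The spread within P14 TIL ranged from 4.10% for Slamf1 to 16.3% for Slamf6, and within P14 Sp from 0.42% for Cd48 to 4.4% for Ly9.

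Levels of different genes were compared as RPKM, the CPM per kilobase of the annotated exon union. In P14 TIL the order was Cd2 (178 ± 7.78 RPKM, SD, n = 3), Sh2d2a (173 ± 8.53), Cd48 (131 ± 18.5), Ly9 (27.9 ± 2.98), Slamf7 (26.7 ± 2.02), Slamf1 (8.61 ± 0.353), Cd84 (4.12 ± 0.467), Sh2d1a (4.07 ± 0.547) and Slamf6 (4.03 ± 0.657). Neighbours overlapped in their library ranges for Cd2 and Sh2d2a, for Ly9 and Slamf7, and among Cd84, Sh2d1a and Slamf6, so their order is not resolved. In P14 Sp the order was Cd48 (345 ± 1.46 RPKM), Cd2 (210 ± 2.93), Sh2d2a (54.0 ± 1.17), Ly9 (49.8 ± 2.19), Slamf7 (30.3 ± 0.609), Cd84 (7.61 ± 0.237), Slamf6 (6.80 ± 0.0777), Sh2d1a (6.21 ± 0.240) and Slamf1 (3.97 ± 0.131), and no neighbours overlapped. Slamf1 was thus the lowest of the 9 members by level in P14 Sp and stood above Cd84, Sh2d1a and Slamf6 in P14 TIL. The exon union counts every annotated exon, and for Slamf6 it is 10832 bp against 5729 bp for the longest transcript. With the longest transcript as the length, the order in P14 TIL became Sh2d1a, Slamf6 and Cd84 for these 3, while the order of the members in P14 Sp stayed as given.

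Cd48 made up a smaller share of the receptor transcripts in P14 TIL than in P14 Sp, and Slamf7 and Slamf1 larger ones. The summed level of Slamf1, Slamf6, Slamf7, Ly9, Cd84, Cd48 and Cd244a was 204 ± 19.4 RPKM in P14 TIL and 445 ± 3.01 RPKM in P14 Sp (SD, n = 3 each). Without Cd48, the other 6 summed to 72.8 ± 1.21 RPKM in P14 TIL and 100.2 ± 2.01 RPKM in P14 Sp. Cd48 made up 64.1% ± 2.89 of the sum in P14 TIL and 77.5% ± 0.321 in P14 Sp. The share of Slamf1 was 4.24% ± 0.239 in P14 TIL and 0.892% ± 0.0346 in P14 Sp, and that of Slamf7 13.1% ± 0.307 and 6.81% ± 0.103. The share of Ly9 overlapped between tissues, at 15.2%, 15.4% and 10.9% in P14 TIL and 11.6%, 11.2% and 10.8% in P14 Sp. The shares of Cd84, Slamf6 and Cd244a were higher in every P14 TIL library than in any P14 Sp library, at 2.02% ± 0.151, 1.97% ± 0.144 and 0.744% ± 0.129 in P14 TIL and 1.71% ± 0.0649, 1.53% ± 0.0278 and 0.380% ± 0.0145 in P14 Sp. These shares are tied to one another, and a fall of Cd48 raises the others. They also depend on the length used. With the longest transcript, Cd48 made up 57.4% in P14 TIL and 71.8% in P14 Sp, and Slamf6 3.32% and 2.67%. B cell and macrophage markers were lower in P14 TIL too, and the part of other cells in these sums and shares was not tested.

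**Figure D3:**
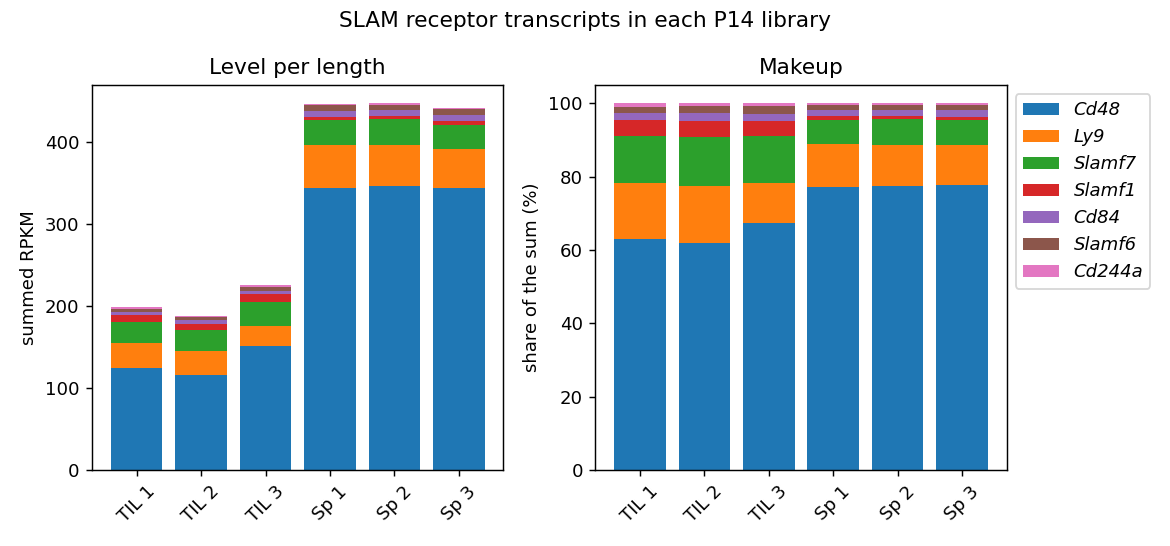
Stacked bars of SLAM receptor transcripts per library, as summed RPKM (left) and as a percent of that sum (right), with the 3 P14 TIL libraries left of the 3 P14 Sp libraries. The sum averages 204 RPKM in P14 TIL and 445 RPKM in P14 Sp, and the Cd48 share 64.1% and 77.5%.

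Relatives outside the set mostly had low counts. Cd244a, which encodes the CD48 receptor 2B4, was at 8.56, 5.78 and 7.87 CPM in P14 TIL, against 8.26, 7.97 and 8.49 CPM in P14 Sp. The tissues overlapped and no call was made (log2 fold change -0.13, with an approximate 95% interval of -0.40 to 0.14, edgeR adjusted p = 0.43). The other 4 of the 5 relatives were lower in P14 TIL, where 35.9% of all genes tested were. Slamf8, a receptor of macrophages and dendritic cells, had 19, 15 and 18 counts in P14 TIL, against 103, 115 and 96 in P14 Sp (log2 fold change -2.58, edgeR adjusted p = 3.0e-07). Slamf9, also of myeloid cells, had 2, 0 and 3 counts in P14 TIL, against 15, 21 and 14 in P14 Sp (-3.22), where a count of 0 in P14 TIL replicate 2 allows up to 0.0784 CPM. The genes of EAT-2, a SAP-type adaptor of NK and myeloid cells, were also low. Sh2d1b1 had 1, 7 and 14 counts in P14 TIL, against 65, 72 and 68 in P14 Sp (-3.19), and Sh2d1b2 had 1, 1 and 5 counts, against 17, 20 and 19 (-2.93). Without P14 TIL replicate 3, which held most of their tumor counts, the log2 fold changes were -3.89 for Slamf9, -4.04 for Sh2d1b1 and -4.05 for Sh2d1b2. All 10 macrophage and monocyte markers fell in P14 TIL too. Of the 8 NK cell markers, Tyrobp (-2.15) and Fcer1g (-1.36), signalling chains that myeloid cells share, and Eomes (-0.31) fell, Klra8 (1.35) and Klra4 (0.95) rose, and Ncr1, Klrb1c and Klra9 were not called (0.09 to 0.28). The part of these cell types in the falls of the relatives was not tested.

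Signalling partners of SLAM receptors, SAP, CD2 and TSAd were more often lower than higher. Of 20 genes, 12 were lower, 3 higher and 5 not called, beside 35.9% lower and 34.8% higher among all genes tested. The median log2 fold change was -0.27 over the partners and -0.02 over all genes tested. Dok2, an adaptor that restrains RAS signalling, was at 111 ± 3.03 CPM in P14 TIL and 207 ± 6.81 CPM in P14 Sp (-0.87, SE 0.06, edgeR adjusted p = 9.2e-08). Lck, the kinase that TSAd and CD2 bind, was at 805 ± 25.9 CPM in P14 TIL and 1166 ± 17.1 CPM in P14 Sp (-0.50). Prkcq, the protein kinase C of the T cell synapse, fell by 0.52 on the log2 scale, and Sh3kbp1, an adaptor of the CD2AP family, by 0.51. The kinase gene Fyn, chosen with its values known, was at 448, 466 and 348 CPM in P14 TIL, against 485, 488 and 473 CPM in P14 Sp, and was not called (-0.17, edgeR adjusted p = 0.15, and -0.03 without P14 TIL replicate 3, the library that lay apart), except without the low-count filter (-0.15, edgeR adjusted p = 0.033). Of the phosphatase genes, Inpp5d (SHIP-1) was lower (-0.35), Ptpn11 (SHP-2) higher (0.19) and Ptpn6 (SHP-1) at 558 ± 24.6 CPM in P14 TIL and 543 ± 5.76 CPM in P14 Sp without a call (0.07, adjusted p = 0.29), except without P14 TIL replicate 3 (0.12, edgeR adjusted p = 0.0084). Ap2m1, the clathrin adaptor subunit that binds the tail of Ly9, was higher (0.28, edgeR adjusted p = 0.00046), as was Arhgef7, an exchange factor that SAP can bind (0.25, edgeR adjusted p = 0.047). The call of Ptpn11 was lost without any 1 of the P14 Sp libraries (edgeR adjusted p from 0.050 to 0.065), and that of Arhgef7 without P14 TIL replicate 1 or 2 or P14 Sp replicate 1 or 2 (edgeR adjusted p from 0.098 to 0.18). Arhgef7 was also not called with the replicate block (edgeR adjusted p = 0.062), by DESeq2 (adjusted p = 0.056), with library-total scaling (0.067), with upper-quartile scaling (0.11) or at a mean of 1 CPM (0.064), and Ptpn11 not with upper-quartile scaling (0.071).

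**Figure D4:**
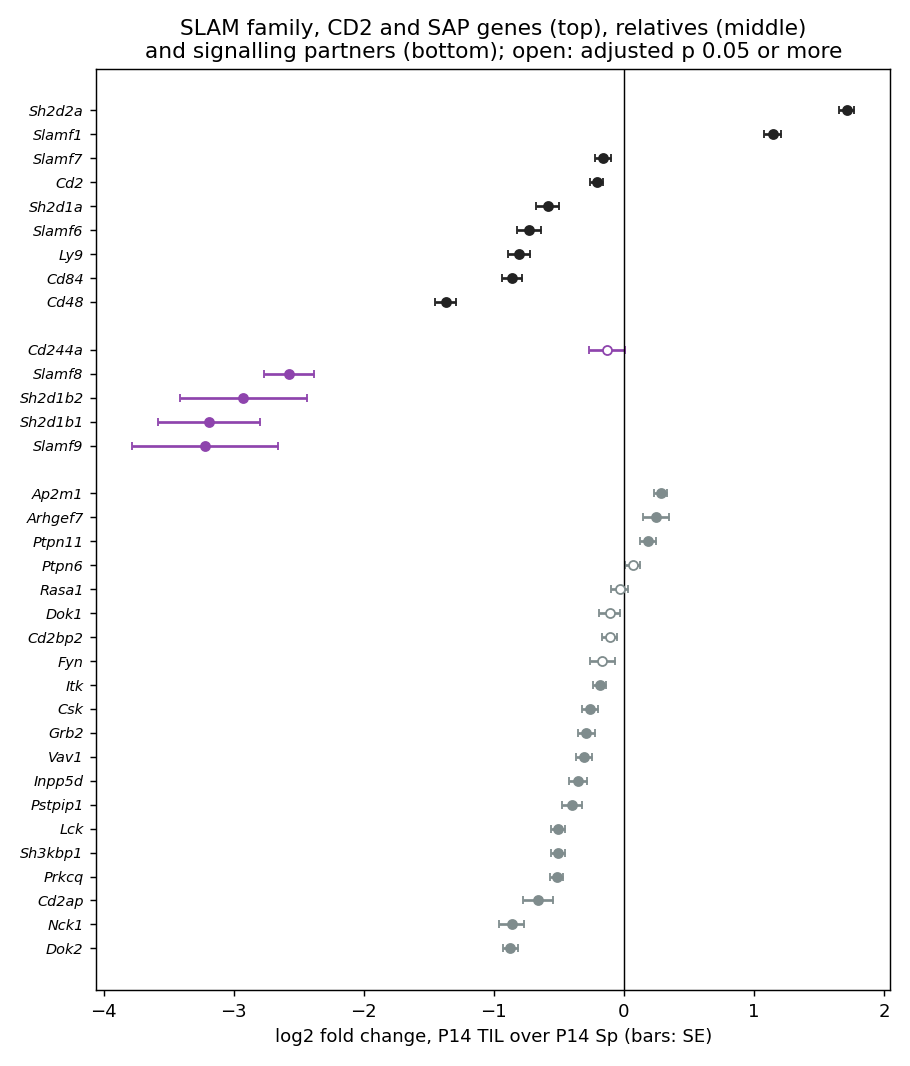
Log2 fold changes, P14 TIL over P14 Sp, with approximate SE bars, for the 9 members (black, top), 5 relatives (purple, middle) and 20 signalling partners (grey, bottom); open points were not called. Members span -1.37 (Cd48) to 1.71 (Sh2d2a), a wider range than the partners, which lie between -0.87 (Dok2) and 0.28 (Ap2m1).

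The 6 SLAM genes of the set lie side by side on mouse chromosome 1 (mm10), within 365 kb from 171588624 to 171953170. In order these are Ly9 (171588624 to 171607410, minus strand), Slamf7 (171632403 to 171653035, minus), Cd48 (171682009 to 171705258, plus), Slamf1 (171767127 to 171801184, plus), Cd84 (171839697 to 171890718, plus) and Slamf6 (171917515 to 171953170, plus). Cd244a overlaps Ly9 on the opposite strand without shared exon sequence. Cd2 lies on chromosome 3 at 101275899 to 101287939, Sh2d2a on chromosome 3 at 87846755 to 87855722 and Sh2d1a on chromosome X at 42502453 to 42529330.

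From Cd244a to Slamf8 the locus spans 1031376 bp and 49 annotated genes, of which 31 were tested, 5 higher and 20 lower, beside 34.8% higher and 35.9% lower among all genes tested. Of its genes outside the family with at least 10 CPM, Igsf8, another immunoglobulin superfamily gene (0.66), Tagln2, an actin-binding protein (0.21), and the processed pseudogene Gm10171 (1.04) were higher. Pea15a (-0.89), Dcaf8 (-0.39), Ncstn, a subunit of gamma-secretase (-0.22), Pigm, of glycolipid anchor synthesis (-0.21), Copa, a coat protein of vesicles (-0.17), and the antisense model Gm37756 (-0.24) were lower. Gm37756 was at -0.16 without P14 TIL replicate 3 (edgeR adjusted p = 0.11), and its call was also lost without P14 TIL replicate 1 or any 1 P14 Sp library (up to 0.17) and with the replicate block (0.062). The call of Pigm was lost without P14 TIL replicate 2 or any 1 P14 Sp library (edgeR adjusted p up to 0.15) and with the replicate block (0.056), and that of Copa without P14 TIL replicate 2 or P14 Sp replicate 1 (both 0.051). Without the low-count filter, Gm37756 (edgeR adjusted p = 0.063) and Pigm (edgeR adjusted p = 0.092) were not called either. Counts of a pseudogene or of overlapping models are uncertain, since no source used here says how reads with several matches were counted. Within the cluster of 6, the fold changes went from -1.37 at Cd48 to 1.14 at Slamf1 and -0.86 at Cd84. The other adjacent pairs, Ly9 and Slamf7, Slamf7 and Cd48, and Cd84 and Slamf6, were all lower.

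**Figure D5:**
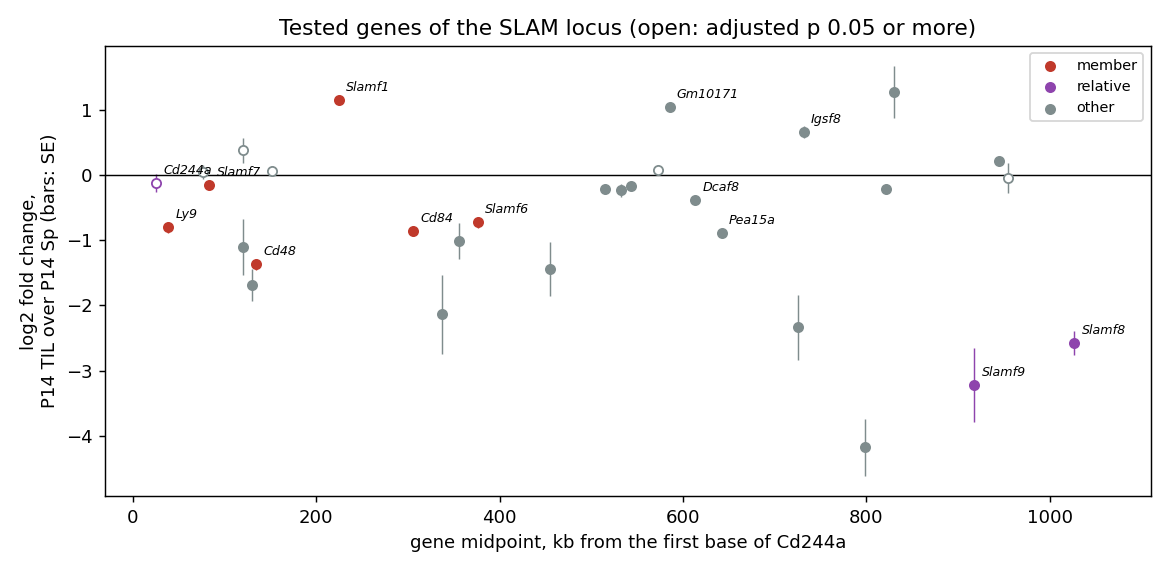
Log2 fold change, P14 TIL over P14 Sp, with SE bars, of the 31 tested genes of the SLAM locus against the distance of each gene's midpoint from the first base of Cd244a in kb; members are red, relatives purple, other genes grey, and open points were not called. Slamf1 (1.14) stands above its flanking members Cd48 (-1.37) and Cd84 (-0.86).

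Likeness to the extremes of the set was measured as the Euclidean distance of log2 CPM profiles over the 6 libraries, each centred on its gene's mean, among 10680 genes of at least 10 CPM. The genes nearest to Sh2d2a were the processed pseudogenes Gm33707 (distance 0.0630), Gm8483 (0.0683) and Gm5855 (0.0922). Those nearest to Cd48 were Ifi205, an interferon-inducible gene (0.0799), Crot, a peroxisomal carnitine acyltransferase (0.0853), and Ifih1, a sensor of viral RNA (0.107). Ifi205 was at 9.50 ± 1.6 CPM in P14 TIL and 25.4 ± 0.592 CPM in P14 Sp, and Crot at 27.5 ± 4.13 CPM and 73.9 ± 0.880 CPM. With 2 tissues of 3 libraries, such distances mainly rank genes by the size of their difference between tissues.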

How the data were processed

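The authors deposited raw counts per gene for 6 libraries, 3 P14 TIL and 3 P14 Sp, with no normalization. Per the submitters' processing notes, reads were handled with bcl2fastq 2.20.0.422, STAR 2.3 and featureCounts on mm10. The annotation release, the use of strand and the handling of multiply matched reads are not stated. Reads were single and 50 bp long, per the labels' protocols.

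Columns were matched to samples by the codes in the descriptions. Symbols, coordinates and lengths came from GENCODE M21. Of 55335 identifiers, 55154 had a symbol. The 9 members and the other lists were chosen with earlier results of these data known.

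R 4.3.3 with edgeR 4.0.16 tested the whole table (TMM scaling, quasi-likelihood F-test, filterByExpr at a count of at least 10 and a total of at least 15). Benjamini-Hochberg adjustment ran over 19783 genes at a threshold of 0.05. SE is the absolute log2 fold change over the square root of F, and approximate 95% intervals use 1.96 SE. Library totals of 35095261 to 38263483 counts set the precision, and a 0 allows up to 3 counts, for counting error only. The procedure was tested on simulated counts with known fold changes. These simulated counts had the same spread in both tissues. The P14 TIL libraries spread more than the P14 Sp libraries, which that test does not cover. Alternatives used limma 3.58.1 and DESeq2 1.42.0, other scalings and filters, a 1.5-fold null, a replicate block and each library left out.

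All members and relatives were named. Of the partners, the 4 with the smallest p among those lower and all 3 that were higher were named. Inpp5d, Ptpn6, Fyn and Nck1 were added outside that rule, with their values known. For likeness, the 3 nearest genes to the member with the largest rise and to that with the largest fall were named. Of the locus, called genes of at least 10 CPM were named.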

Additional observations from a re-analysis of the deposited data

How the results depend on the processing

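Of 135 recomputed member log2 fold changes, 124 kept their direction and their side of the threshold and 11 lost the call, none with a change of sign. Slamf1, Ly9, Cd84, Cd48 and Sh2d2a kept theirs under all 15 alternatives, with ranges of 1.09 to 1.17, -0.86 to -0.70, -0.93 to -0.78, -1.47 to -1.29 and 1.66 to 1.77. Slamf7 lost its call without the low-count filter (-0.14, adjusted p = 0.077), with the replicate block (-0.16, adjusted p = 0.053) and in 5 of the 6 fits with a library left out, whose values ran from -0.20 to -0.12; the cause was not tested. Against a 1.5-fold null, which asks for a larger change, Slamf6 (-0.73, adjusted p = 0.064), Slamf7 (-0.16, adjusted p = 1.0), Cd2 (-0.21, adjusted p = 1.0) and Sh2d1a (-0.58, adjusted p = 0.54) were not called, so 3 members were lower. Under that null 2953 genes were higher and 3464 lower, and 2 locus genes were higher and 11 lower. Of the partners, 0 were higher and 2 lower, Dok2 (-0.87) and Nck1 (-0.86). A filter at a mean of 1 CPM tested fewer genes and left 2 relatives and 12 locus genes lower. Upper-quartile scaling left 1 partner higher. With a library left out, 1 to 4 partners were higher. Same-numbered libraries of the 2 tissues deviated with correlations of -0.0056, 0.036 and 0.012 over 16358 genes, and the labels tie no number to a mouse, so the numbers were not used as pairs. The replicate block gave 6747 genes higher and 7025 lower and changed no other member's call; of the relatives, partners and named locus genes, Arhgef7, Gm37756 and Pigm lost theirs. With the longest transcript as length, levels in P14 TIL and P14 Sp became 11.99 and 5.53 RPKM for Slamf1, 7.62 and 12.9 for Slamf6, 30.7 and 34.9 for Slamf7, 37.1 and 66.2 for Ly9, 7.52 and 13.9 for Cd84, 269 and 318 for Cd2, 8.16 and 12.5 for Sh2d1a, and 230 and 71.5 for Sh2d2a, since that length is shorter. No scaling moved the median of all genes beyond -0.07. Cd244a was at 0.03 without P14 TIL replicate 2, and not called in any alternative. Depth limits Slamf9, Sh2d1b1 and Sh2d1b2, which had at most 14 counts in a P14 TIL library.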
